A study of Mus musculus with 12 samples.

Results

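The 41 genes described here belong to the type I interferon response and to nucleic acid sensing: the receptors that detect foreign or misplaced RNA and DNA, the transcription factors they activate, and the antiviral genes that interferon induces. They were taken from the deposited gene table by name, and all 41 were among its 29937 genes. Of the 41, 29 reached 1 FPKM (fragments per kilobase of transcript, scaled to library depth) in at least 3 of the 12 libraries and were tested. The other 12 did not reach 1 FPKM in any library.

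RNA sequencing was run on 12 libraries of mouse 4T1 cells, a mammary carcinoma line, in 4 groups of 3 libraries. The OAP2, Oxa and APAP groups were each treated with the agent of that name, which the labels give as code names only. The PBS group, which served as the control here, carries PBS in its titles and DMSO as its treatment label. Cells of every group are labelled WT and adherent, while the series' design text speaks of xenografts derived from a cell line. All groups thus rest on 1 cell line, and the sources used here give no doses or treatment times. No label says that the libraries of a group came from separate cultures, so the p-values rest on a spread between libraries that may be technical.

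When a cell detects RNA or DNA where it should not be, sensors such as RIG-I and MDA5 signal through the kinase TBK1 to IRF3, which switches on interferon-beta. Secreted interferon binds its receptor and activates factors that include STAT2 and IRF9, which bind the interferon-stimulated response element (ISRE) in the promoters of antiviral genes. Cancer cells can run this program without infection, and in tumours it is known for the chemokines that draw T cells.

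The 12 libraries held between 64071751 and 71500487 counts. PBS library 2 stood apart from the others on the first principal components, as did OAP2 library 3. In PBS 2 the summed level of 6 listed red blood cell markers was 231 FPKM, against at most 0.37 in any other library, and that of the neutrophil markers was 67.5 FPKM, against at most 0.72. Macrophage markers summed to 46.5 FPKM in PBS 1 and to between 12.2 and 20.8 FPKM in the other 11 libraries. The 8 epithelial markers were abundant in every library, while dendritic, T and NK, B and endothelial markers summed to at most 0.66 FPKM for each list, with 3 of the 8 T and NK markers in the table. The part of these other cells in the results was not tested, so member calls that change without PBS 2 are given with and without it. In bulk RNA, fewer cells of a type and less RNA per cell cannot be told apart.

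Promoter sequences are shown for the 4 members with the smallest p among those called for OAP2 against PBS, to show the element that interferon-activated factors bind. Each window runs from 250 bases before to 50 bases after a RefSeq start on GRCm38.p6, and capitals mark the ISRE core, which is GAAA, any 2 bases and GAAA, searched on both strands.
Ifi203 promoter, chr1:173942443-173942742, minus strand: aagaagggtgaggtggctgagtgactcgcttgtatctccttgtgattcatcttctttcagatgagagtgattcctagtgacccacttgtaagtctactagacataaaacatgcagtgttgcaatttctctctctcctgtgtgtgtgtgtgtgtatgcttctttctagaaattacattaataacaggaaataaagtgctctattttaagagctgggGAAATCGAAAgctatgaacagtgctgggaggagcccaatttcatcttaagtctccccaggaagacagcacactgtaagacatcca
Ifih1 promoter, chr2:62646206-62646505, minus strand: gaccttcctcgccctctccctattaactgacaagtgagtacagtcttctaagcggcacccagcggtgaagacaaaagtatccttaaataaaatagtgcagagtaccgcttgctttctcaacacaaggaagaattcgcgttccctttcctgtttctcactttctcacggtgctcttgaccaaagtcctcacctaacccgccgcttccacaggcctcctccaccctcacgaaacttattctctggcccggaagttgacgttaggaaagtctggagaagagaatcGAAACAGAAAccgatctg
Isg15 promoter, chr4:156200769-156201068, minus strand: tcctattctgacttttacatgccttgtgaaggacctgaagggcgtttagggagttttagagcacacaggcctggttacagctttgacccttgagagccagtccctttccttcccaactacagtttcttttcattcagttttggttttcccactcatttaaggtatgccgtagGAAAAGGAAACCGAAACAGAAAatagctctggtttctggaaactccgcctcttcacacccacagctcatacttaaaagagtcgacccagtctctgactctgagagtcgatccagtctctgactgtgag
Rsad2 promoter, chr12:26456403-26456702, minus strand: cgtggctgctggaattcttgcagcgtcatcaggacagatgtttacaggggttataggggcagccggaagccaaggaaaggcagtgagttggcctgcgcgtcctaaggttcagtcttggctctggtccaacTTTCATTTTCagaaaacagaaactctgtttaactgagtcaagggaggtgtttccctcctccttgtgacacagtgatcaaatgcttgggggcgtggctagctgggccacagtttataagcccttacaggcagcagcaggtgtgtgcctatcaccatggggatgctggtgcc
Isg15 had 3 overlapping matches in its window, Ifih1 had 1, and the Rsad2 match was written on the opposite strand. Ifi203 had a match in 1 of its windows and none in the other RefSeq start's window. The ISRE core was present for 13 of the 30 members found in the promoter table, against 3.99% of the 27025 genes in that table and 3.44% of its 32851 windows. The site of STAT dimers, TTCNNNGAA, was present for 8 of the 30 members, against 9.55% of all genes and 8.3% of windows. Dhx58, Zbp1, Ifi204, Mx1, Mx2, Oas2, Usp18, Parp9, Parp14, Ifi27l2a and Rtp4 were not among the 30. A match describes these letters only and does not show that a factor bound there.

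**Figure D1:**
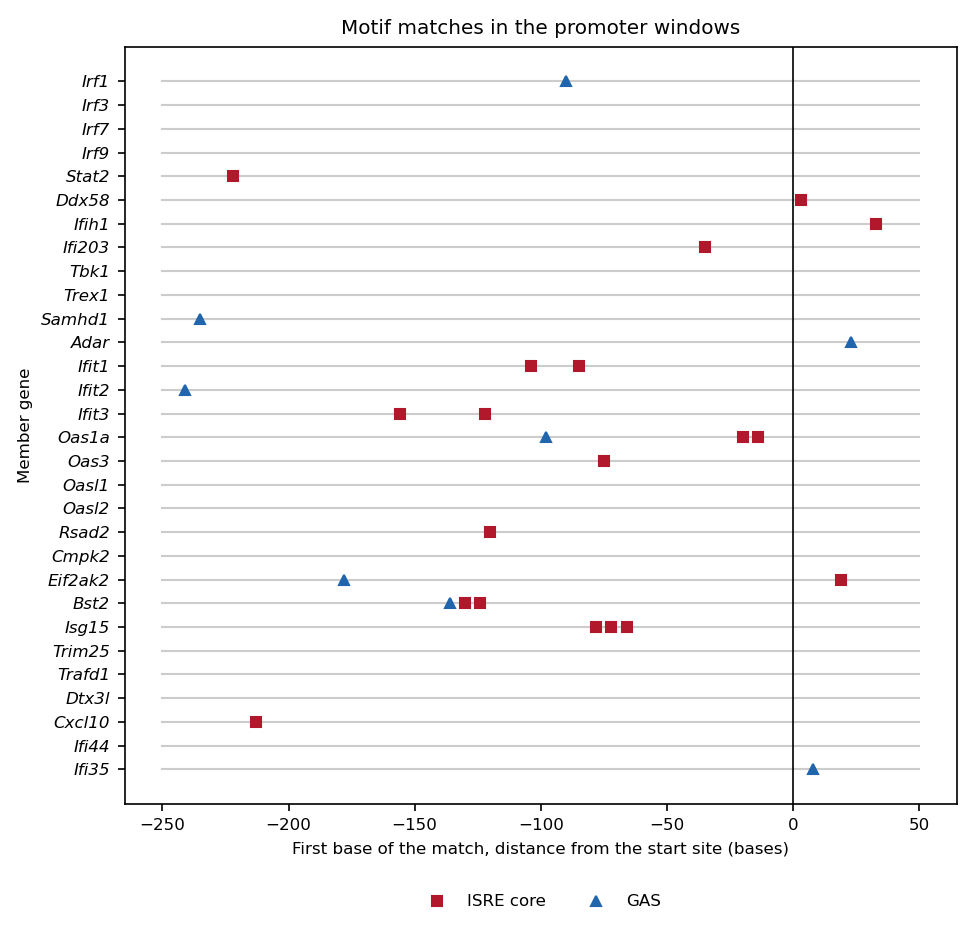
The plot marks the first base of each ISRE core and STAT site found in the promoter windows, by member (rows) and distance in bases from the start site (x axis). The ISRE core is marked for 13 of 30 members and the STAT site for 8 of 30.

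For OAP2 against PBS, 7 of the 29 tested members were called higher and 0 lower by edgeR's quasi-likelihood test at a Benjamini-Hochberg adjusted p below 0.05, against 5.25% of all 12036 genes tested in either direction, 2.14% higher and 3.11% lower. These were Ifi203, Ifih1, Isg15, Rsad2, Trafd1, Oasl2 and Ifi35. The median log2 fold change of the 29 was 0.32, against -0.00071 over all genes tested, and 24 of the 29 were positive. All 3 OAP2 libraries lay above all 3 PBS libraries for 12 members, a pattern found in 8.78% of all genes, and below them for 1, found in 9.94%. The median, the 24 and the 12 include Ifit1 and Rtp4, which passed the level filter only with the OAP2 libraries. A difference was thus in part built into them. Without PBS 2, 9 members were called higher and 0 lower, the 7 above with Trim25 and Oasl1, while the share of all genes called was 16.4%. A fit of only the 6 OAP2 and PBS libraries called 1 member, Ifi203, and 38 of all genes.

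For Oxa against PBS, 8 members were called higher and 2 lower, against a background of 10.1% of all genes called, 5.35% higher and 4.76% lower. Samhd1, Ifi35, Trafd1, Dtx3l, Ddx58, Irf1, Ifit2 and Eif2ak2 rose, and Rsad2 and Oasl1 fell. Ifit2 passed the level filter only with the Oxa libraries. The median over the 29 was 0.20, against -0.013 over all genes. The Oxa libraries did not overlap the PBS libraries for 12 members above them and 4 below, against 14.5% and 14.6% of all genes. The median and the 12 include Ifit2 and Parp14, and Parp14 too passed the level filter only with the Oxa libraries. Without PBS 2, 12 members were called, with Trim25 added as higher and Tbk1 as lower, while the share of all genes called was 25.5%. Leaving out Oxa 1, Oxa 2 or Oxa 3 reduced the members called to 6, 4 and 4, in that order. The share of all genes called fell too, to 4.45%, 3.96% and 4.86%. The comparisons with PBS share the same 3 control libraries, so they are not independent of each other.

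For APAP against PBS, edgeR called 0 of the 29 members, against 0.0166% of all genes, and 7 members had an unadjusted p below 0.05, 5 of them with positive and 2 with negative values, against 9.16% of all genes. DESeq2 called 1 member and 0.806% of all genes, and limma on log2(FPKM + 1) called 0 members and 0.0166% of all genes. The median was -0.002 over the members and -0.0041 over all genes. The 3 APAP libraries lay wholly above the PBS libraries for 4 members and wholly below for 3, against 4.67% and 11.2% of all genes.

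For OAP2 against Oxa, 9 members were called higher and 3 lower, against 12.9% of all genes called, 6.02% higher and 6.91% lower. Ifi203, Rsad2, Ifih1, Oasl1, Oasl2, Cxcl10, Isg15, Rtp4 and Ifit1 were higher in OAP2, and Samhd1, Ifit2 and Ddx58 were lower in OAP2. Of these, Ifit1 and Rtp4 passed the level filter only with the OAP2 libraries, and Ifit2 only with the Oxa libraries. For OAP2 against APAP, 3 members were called higher and 0 lower (Isg15, Ifi203 and Trafd1), against 0.474% of all genes called and 0.274% higher. This count was 8 without PBS 2, where 7.61% of all genes were called, and 5 without OAP2 3, where 1.04% were. It was 0 without OAP2 1, OAP2 2, Oxa 1 or any 1 APAP library, where at most 0.0665% of all genes were called. The members added without PBS 2 were Oasl1 at 0.93 (adjusted p = 0.00687), Ifi35 at 0.84 (adjusted p = 0.0074), Rsad2 at 1.08 (adjusted p = 0.0148), Ifih1 at 0.49 (adjusted p = 0.0222) and Rtp4 at 1.00 (adjusted p = 0.0238). With all 12 libraries their adjusted p lay between 0.0816 for Rsad2 and 0.133 for Oasl1. These 5 comparisons gave 32 calls on members, all 32 of which held without PBS 2 and 16 of which held when any single library was left out.

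**Figure D2:**
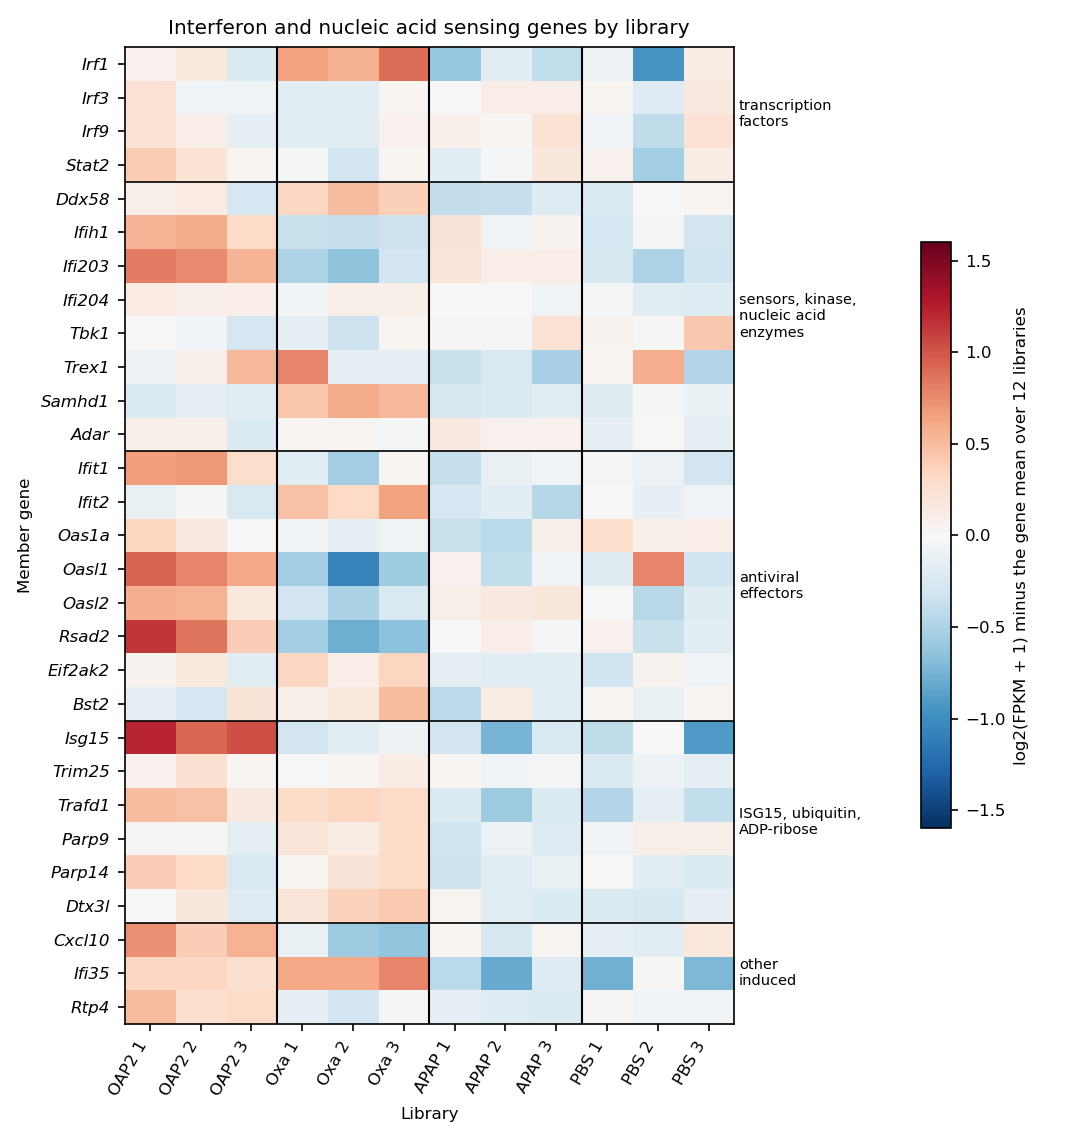
The colours show log2(FPKM + 1) minus the gene's mean over the 12 libraries (columns, by group) for each tested member (rows). The OAP2 libraries are the 3 highest for 7 members and the Oxa libraries for another 7. Among these, Ifit1 and Rtp4 passed the level filter only with OAP2 and Ifit2 only with Oxa.

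Among the transcription factors, only Irf1 was called in any of the 5 comparisons, and it rose with Oxa against PBS. Gene positions here are those of the deposited table, most of which match GRCm38. IRF1 switches on interferon genes and many interferon-induced ones. Irf1 (chr11:53770014-53777323, plus strand) had 4.69, 5.06 and 3.67 FPKM in the OAP2 libraries, 7.51, 7.06 and 9.12 in the Oxa libraries, 2.56, 3.78 and 3.13 in the APAP libraries and 4.14, 1.82 and 4.91 in the PBS libraries. The Oxa libraries were the 3 highest of the 12, and PBS 2 was the lowest. For Oxa the log2 fold change against PBS was 1.13 ± 0.28 (SE), adjusted p = 0.0225, and without PBS 2 it was 0.81 (adjusted p = 0.0052). The call ended without any 1 of the 3 Oxa libraries (adjusted p up to 0.0788). For OAP2 against PBS the value was 0.32 (95% interval -0.27 to 0.92), which did not pass the test. OAP2 against Oxa gave -0.81 ± 0.28 (SE), adjusted p = 0.0713, with all OAP2 libraries below all Oxa libraries, and without PBS 2 it passed, at -0.81 (adjusted p = 0.00266).

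IRF3 is the factor that sensors activate directly, and IRF9 and STAT2 carry the interferon signal to the ISRE. Irf3 lay between 6.14 and 8.67 FPKM over the 12 libraries, Irf9 between 1.58 and 3 FPKM and Stat2 between 1.1 and 3.04 FPKM. None of these 3 was called in any of the 5 comparisons, and PBS 2 was the lowest of the 12 libraries for each.

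Of the 8 tested sensors, the kinase and the nucleic acid enzymes, Ifi203 and Ifih1 rose with OAP2, and Samhd1 and Ddx58 rose with Oxa. Ifi203 encodes a nuclear protein of the mouse Ifi200 family, several of which bind DNA. Ifi203 (chr1:173920407-173942672, minus strand) had 33.6, 32.1 and 27.6 FPKM in the OAP2 libraries, 12.9, 11.6 and 14.8 in the Oxa libraries, 21.4, 20.1 and 20.1 in the APAP libraries and 15.3, 12.9 and 14.7 in the PBS libraries. The OAP2 libraries were the 3 highest, the APAP libraries came next, and the Oxa and PBS libraries overlapped. The log2 fold change was 1.13 ± 0.11 (SE), adjusted p = 0.00016 for OAP2 against PBS and 0.57 ± 0.11 (SE), adjusted p = 0.0341 for OAP2 against APAP. The call against PBS held without any 1 library, while that against APAP ended without OAP2 1, OAP2 2, Oxa 1 or any 1 APAP library (adjusted p up to 0.243). For APAP against PBS the groups did not overlap and the value was 0.56 ± 0.11 (SE), adjusted p = 0.157. Ifi203 overlaps Mndal, another gene of its family, on the same strand, so the split of reads between them is uncertain.

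MDA5, the product of Ifih1, detects long double-stranded RNA. Ifih1 (chr2:62595798-62646211, minus strand) had 4.55, 4.77 and 3.73 FPKM in the OAP2 libraries, 1.99, 1.97 and 2.04 in the Oxa libraries, 3.42, 2.67 and 2.99 in the APAP libraries and 2.14, 2.75 and 2.11 in the PBS libraries. All 3 OAP2 libraries lay above the other 9, and all 3 Oxa libraries lay below the other 9. Its log2 fold change was 0.91 ± 0.14 (SE), adjusted p = 0.00306 for OAP2 against PBS and 1.13 ± 0.14 (SE), adjusted p = 0.000478 for OAP2 against Oxa, and both calls held without any 1 library. For APAP against PBS it was 0.42 ± 0.14 (SE), adjusted p = 0.407.

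RIG-I, the product of Ddx58, detects short double-stranded RNA with a triphosphate end. Ddx58 (chr4:40203773-40239825, minus strand) had 5.16, 5.35 and 3.82 FPKM in the OAP2 libraries, 6.35, 7.23 and 6.6 in the Oxa libraries, 3.47, 3.52 and 4.05 in the APAP libraries and 3.92, 4.81 and 4.99 in the PBS libraries. The Oxa libraries were the 3 highest, and the OAP2 and PBS libraries overlapped. edgeR gave a log2 fold change of 0.57 ± 0.13 (SE), adjusted p = 0.0181 for Oxa against PBS and -0.49 ± 0.13 (SE), adjusted p = 0.0297 for OAP2 against Oxa. The first call ended without Oxa 2 or PBS 1 (adjusted p up to 0.084), and the second without OAP2 1, OAP2 3 or any 1 Oxa library (adjusted p up to 0.131). The 2 RNA sensors thus differed in where they were highest, Ifih1 in OAP2 and Ddx58 in Oxa.

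SAMHD1 degrades the deoxynucleotides that viruses need and acts at stalled replication forks. Samhd1 (chr2:157097533-157135265, minus strand) had 6.22, 6.58 and 6.46 FPKM in the OAP2 libraries, 10.5, 11.7 and 11.1 in the Oxa libraries, 6.05, 6.19 and 6.51 in the APAP libraries and 6.37, 7.24 and 6.83 in the PBS libraries. The Oxa libraries stood above the other 9, which lay between 6.05 and 7.24 FPKM. In the test the log2 fold change was 0.71 ± 0.08 (SE), adjusted p = 0.000917 for Oxa against PBS and -0.78 ± 0.08 (SE), adjusted p = 0.000252 for OAP2 against Oxa, and both calls held under every alternative run.

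IFI204 is another DNA-binding protein of the mouse Ifi200 family, TBK1 is the kinase that activates IRF3, and ADAR edits adenosines in double-stranded RNA. Ifi204 had 20.9, 20.1 and 20.6 FPKM in the OAP2 libraries, 18.5, 20.5 and 20.4 in the Oxa libraries, 19.1, 18.9 and 18.3 in the APAP libraries and 18.6, 16.9 and 16.3 in the PBS libraries. The OAP2 libraries lay above the PBS libraries by a small margin, with a log2 fold change of 0.26 ± 0.09 (SE), adjusted p = 0.113. For Oxa against PBS the value was 0.20 ± 0.09 (SE), adjusted p = 0.167.

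Tbk1 had 10.8, 10.4 and 8.74 FPKM in the OAP2 libraries, 9.66, 8.31 and 11 in the Oxa libraries, 10.8, 10.4 and 12.8 in the APAP libraries and 11.1, 10.9 and 14.8 in the PBS libraries. The Oxa and PBS libraries overlapped, at -0.34 ± 0.13 (SE), adjusted p = 0.115 for Oxa against PBS. Without PBS 2, Tbk1 was called lower in Oxa against PBS, at -0.42 (adjusted p = 0.0335). Adar had 10.9, 10.9 and 8.54 FPKM in the OAP2 libraries, 10.5, 10.5 and 10.1 in the Oxa libraries, 11.4, 10.8 and 10.8 in the APAP libraries and 9.26, 10.3 and 9.13 in the PBS libraries. The APAP libraries lay just above the PBS libraries, at 0.24 ± 0.10 (SE), adjusted p = 0.511. TREX1 degrades DNA in the cytosol, and Trex1 lay between 0.02 and 1.52 FPKM, reached 1 FPKM in only 3 libraries (OAP2 3, Oxa 1 and PBS 2) and was not called.

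**Figure D3:**
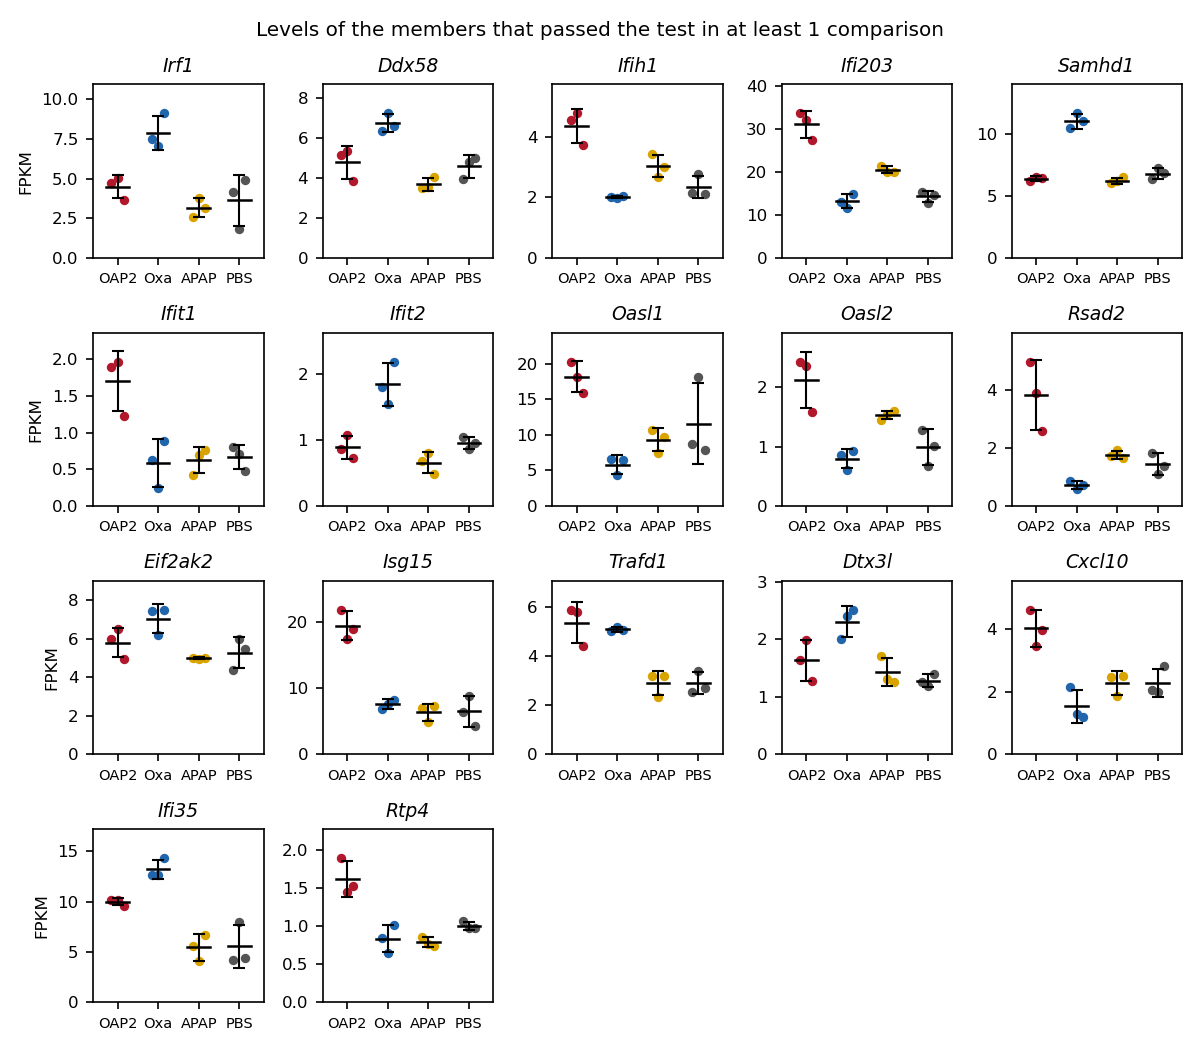
Each panel plots the FPKM of 1 called member in the OAP2, Oxa, APAP and PBS libraries (points), with the group means and their SD as lines (n = 3). Isg15 lies between 17.4 and 21.8 FPKM in OAP2 and at most at 8.85 FPKM in the other libraries, while Samhd1 lies between 10.5 and 11.7 FPKM in Oxa.

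Of the 8 tested antiviral effectors, 2 rose with OAP2 against PBS (Rsad2 and Oasl2), and against PBS, Oxa gave 2 that rose (Ifit2 and Eif2ak2) and 2 that fell (Rsad2 and Oasl1). Rsad2 encodes viperin, which makes a modified nucleotide that stops viral polymerases. Rsad2 (chr12:26442746-26456452, minus strand) had 4.96, 3.89 and 2.56 FPKM in the OAP2 libraries, 0.85, 0.57 and 0.72 in the Oxa libraries, 1.71, 1.92 and 1.66 in the APAP libraries and 1.83, 1.11 and 1.38 in the PBS libraries. The OAP2 libraries were the 3 highest and the Oxa libraries the 3 lowest, with APAP and PBS overlapping between them. The log2 fold change was 1.40 ± 0.25 (SE), adjusted p = 0.00691 for OAP2 against PBS and -1.02 ± 0.25 (SE), adjusted p = 0.0235 for Oxa against PBS. Between the agents, OAP2 against Oxa gave 2.42 ± 0.26 (SE), adjusted p = 0.000252. The OAP2 calls held without any 1 library, while the Oxa call against PBS ended without Oxa 2, Oxa 3 or PBS 1 (adjusted p up to 0.0958).

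Oasl1 and Oasl2 encode relatives of the oligoadenylate synthetases. In mice, OASL1 limits translation of the factor IRF7. Oasl1 (chr5:114923240-114937915, plus strand) had 20.3, 18.2 and 16 FPKM in the OAP2 libraries, 6.65, 4.31 and 6.51 in the Oxa libraries, 10.8, 7.52 and 9.75 in the APAP libraries and 8.74, 18.2 and 7.93 in the PBS libraries. PBS 2 lay within the OAP2 range, above both other PBS libraries, and the 3 Oxa libraries were the lowest of the 12. For OAP2 against PBS the log2 fold change was 0.66 ± 0.27 (SE), adjusted p = 0.179, and without PBS 2 it was 1.14 (adjusted p = 0.00142), which passed the test. For Oxa against PBS it was -0.99 ± 0.27 (SE), adjusted p = 0.0354, against -0.51 (adjusted p = 0.0486) without PBS 2, and the call ended without any 1 Oxa library or without APAP 3 (adjusted p up to 0.141). OAP2 against Oxa gave 1.65 ± 0.28 (SE), adjusted p = 0.00231 and held under every alternative.

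Oasl2 (chr5:114896936-114912234, plus strand) had 2.43, 2.36 and 1.58 FPKM in the OAP2 libraries, 0.85, 0.61 and 0.93 in the Oxa libraries, 1.45, 1.54 and 1.59 in the APAP libraries and 1.28, 0.68 and 1.01 in the PBS libraries. All OAP2 libraries lay above the Oxa and PBS libraries, and OAP2 3 overlapped the APAP range. Its log2 fold change was 1.11 ± 0.24 (SE), adjusted p = 0.0178 for OAP2 against PBS, and the call ended without OAP2 1 or OAP2 2 (adjusted p up to 0.0771). OAP2 against Oxa gave 1.42 ± 0.24 (SE), adjusted p = 0.00265, and APAP against PBS gave 0.67 ± 0.24 (SE), adjusted p = 0.43 with groups that did not overlap.

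The IFIT proteins bind viral RNA and hold back its translation. Ifit1 (chr19:34640871-34650009, plus strand) had 1.9, 1.97 and 1.23 FPKM in the OAP2 libraries, 0.63, 0.24 and 0.89 in the Oxa libraries, 0.42, 0.69 and 0.76 in the APAP libraries and 0.8, 0.71 and 0.48 in the PBS libraries. It passed the level filter through the 3 OAP2 libraries alone, which lay above the other 9, so a difference was built into its being tested. edgeR gave a log2 fold change of 1.36 ± 0.41 (SE), adjusted p = 0.0731 for OAP2 against PBS, which did not pass, and 1.55 ± 0.41 (SE), adjusted p = 0.0254 for OAP2 against Oxa. The call against Oxa ended without OAP2 1, OAP2 2, Oxa 1 or Oxa 2 (adjusted p up to 0.0754).

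Ifit2 (chr19:34550694-34576419, plus strand) had 0.87, 1.07 and 0.72 FPKM in the OAP2 libraries, 1.81, 1.54 and 2.19 in the Oxa libraries, 0.68, 0.8 and 0.49 in the APAP libraries and 1.05, 0.86 and 0.96 in the PBS libraries. Here the Oxa libraries were the 3 highest, whereas for Ifit1 the OAP2 libraries were. Besides the Oxa libraries only OAP2 2 and PBS 1 reached 1 FPKM. Ifit2 thus passed the level filter only with the Oxa libraries, so a difference was in part built into its being tested. In the test the log2 fold change was 0.94 ± 0.24 (SE), adjusted p = 0.0253 for Oxa against PBS, lost without Oxa 1, Oxa 3 or PBS 3 (adjusted p up to 0.103). For OAP2 against Oxa it was -1.05 ± 0.24 (SE), adjusted p = 0.013, lost without Oxa 3 (adjusted p = 0.0596).

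PKR, the product of Eif2ak2, is a kinase that shuts down translation when it binds double-stranded RNA. Eif2ak2 (chr17:78852564-78882573, minus strand) had 5.96, 6.49 and 4.96 FPKM in the OAP2 libraries, 7.45, 6.19 and 7.5 in the Oxa libraries, 5.02, 4.93 and 4.99 in the APAP libraries and 4.38, 5.96 and 5.45 in the PBS libraries. The Oxa libraries lay above the PBS libraries, by 0.43 ± 0.13 (SE), adjusted p = 0.0496, just inside the threshold. The call ended in 9 of the 12 fits that left out 1 library (adjusted p up to 0.165) and held without OAP2 2, OAP2 3 or PBS 2. Oas1a, an oligoadenylate synthetase, had 1.82, 1.45 and 1.22 FPKM in the OAP2 libraries, 1.15, 1.02 and 1.12 in the Oxa libraries, 0.74, 0.65 and 1.35 in the APAP libraries and 1.7, 1.35 and 1.39 in the PBS libraries. APAP 1 and APAP 2 were the lowest of the 12 libraries and APAP 3 lay near PBS, with a value of -0.67 ± 0.29 (SE), adjusted p = 0.516 for APAP against PBS. Bst2, which tethers budding virus to the cell surface, lay between 15 and 29.3 FPKM and was not called in any comparison.

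Of the 6 tested genes of the ISG15 system and of ubiquitin or ADP-ribose enzymes, Isg15 and Trafd1 rose with OAP2, and Trafd1 and Dtx3l rose with Oxa. ISG15 is a ubiquitin-like protein that is joined to other proteins during the interferon response. Isg15 (chr4:156199455-156200796, minus strand) had 21.8, 17.4 and 19 FPKM in the OAP2 libraries, 6.88, 7.62 and 8.26 in the Oxa libraries, 6.92, 4.82 and 7.23 in the APAP libraries and 6.37, 8.85 and 4.22 in the PBS libraries. The OAP2 libraries lay above the other 9, whose Oxa, APAP and PBS ranges overlapped. The log2 fold change was 1.59 ± 0.25 (SE), adjusted p = 0.00366 for OAP2 against PBS and 1.36 ± 0.25 (SE), adjusted p = 0.00396 for OAP2 against Oxa, both held without any 1 library. For OAP2 against APAP it was 1.59 ± 0.25 (SE), adjusted p = 0.0247, and this call ended without OAP2 1, OAP2 2, Oxa 1 or any 1 APAP library (adjusted p up to 0.13).

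TRAFD1 is a feedback regulator that dampens innate signalling. Trafd1 (chr5:121371725-121385629, minus strand) had 5.89, 5.81 and 4.4 FPKM in the OAP2 libraries, 5.02, 5.2 and 5.07 in the Oxa libraries, 3.19, 2.32 and 3.19 in the APAP libraries and 2.55, 3.4 and 2.72 in the PBS libraries. The OAP2 and Oxa libraries lay above the APAP and PBS libraries, and OAP2 and Oxa overlapped. Its log2 fold change was 0.90 ± 0.16 (SE), adjusted p = 0.00712 for OAP2 against PBS and 0.83 ± 0.16 (SE), adjusted p = 0.0085 for Oxa against PBS, both held without any 1 library. OAP2 against APAP gave 0.86 ± 0.16 (SE), adjusted p = 0.0341, a call that ended without OAP2 1, OAP2 2 or any 1 Oxa or APAP library (adjusted p up to 0.188). OAP2 against Oxa differed by 0.08 (95% interval -0.27 to 0.42).

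DTX3L is a ubiquitin ligase that works in a complex with PARP9, and the 2 genes overlap on opposite strands, so counts of both are less certain. Dtx3l (chr16:35926511-35939151, minus strand) had 1.63, 1.99 and 1.28 FPKM in the OAP2 libraries, 2.01, 2.4 and 2.51 in the Oxa libraries, 1.71, 1.31 and 1.26 in the APAP libraries and 1.25, 1.19 and 1.4 in the PBS libraries. The Oxa libraries were the 3 highest. For Oxa the log2 fold change against PBS was 0.86 ± 0.19 (SE), adjusted p = 0.0139, lost without Oxa 2 or Oxa 3 (adjusted p up to 0.0568). Parp9 had 2.15, 2.15 and 1.81 FPKM in the OAP2 libraries, 2.56, 2.39 and 2.81 in the Oxa libraries, 1.49, 1.92 and 1.71 in the APAP libraries and 2.03, 2.32 and 2.33 in the PBS libraries. Its Oxa libraries were also the 3 highest, and its APAP libraries lay below the PBS libraries at -0.34 ± 0.14 (SE), adjusted p = 0.505.

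TRIM25 is a ubiquitin ligase that activates RIG-I, and PARP14 attaches ADP-ribose to proteins. Trim25 had 15.1, 17.1 and 14.5 FPKM in the OAP2 libraries, 14.3, 14.6 and 15.5 in the Oxa libraries, 14.6, 13.8 and 14.1 in the APAP libraries and 12.1, 13.3 and 12.9 in the PBS libraries. The PBS libraries were the 3 lowest of the 12. edgeR gave a log2 fold change of 0.30 ± 0.09 (SE), adjusted p = 0.0638 for OAP2, 0.22 ± 0.09 (SE), adjusted p = 0.118 for Oxa and 0.19 ± 0.09 (SE), adjusted p = 0.531 for APAP, each against PBS. Without PBS 2 Trim25 passed the test for OAP2, at 0.34 (adjusted p = 0.0206), and for Oxa, at 0.26 (adjusted p = 0.0482).

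Parp14 had 1.55, 1.42 and 0.65 FPKM in the OAP2 libraries, 1.01, 1.25 and 1.39 in the Oxa libraries, 0.55, 0.74 and 0.79 in the APAP libraries and 0.95, 0.72 and 0.67 in the PBS libraries. OAP2 3 lay below the other OAP2 libraries and below all PBS libraries, and the Oxa libraries lay above the PBS libraries. Besides the Oxa libraries only OAP2 1 and OAP2 2 reached 1 FPKM. Parp14 thus passed the level filter only with the Oxa libraries, so a difference was in part built into its being tested. The values were 0.63 ± 0.28 (SE), adjusted p = 0.218 for OAP2 against PBS and 0.64 ± 0.28 (SE), adjusted p = 0.157 for Oxa against PBS.

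Of the 3 other tested induced genes, Ifi35 rose with both OAP2 and Oxa, and Cxcl10 and Rtp4 were higher in OAP2 than in Oxa. IFI35 is an interferon-induced leucine zipper protein that pairs with NMI. Ifi35 (chr11:101448407-101458698, plus strand) had 10.2, 10.2 and 9.59 FPKM in the OAP2 libraries, 12.7, 12.6 and 14.3 in the Oxa libraries, 5.57, 4.07 and 6.73 in the APAP libraries and 4.23, 8 and 4.4 in the PBS libraries. The Oxa libraries were the 3 highest, the OAP2 libraries came next, and PBS 2 lay above both other PBS libraries. In the test the log2 fold change was 1.26 ± 0.23 (SE), adjusted p = 0.00632 for Oxa against PBS, held under every alternative, and 0.86 ± 0.23 (SE), adjusted p = 0.045 for OAP2 against PBS. The OAP2 call ended in 10 of the 12 fits that left out 1 library (adjusted p up to 0.135) and held without APAP 2 or PBS 2. Without PBS 2 the OAP2 value was 1.22 (adjusted p = 0.000647).

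CXCL10 is a secreted chemokine that attracts T cells. Cxcl10 (chr5:92346638-92348882, minus strand) had 4.62, 3.46 and 3.99 FPKM in the OAP2 libraries, 2.15, 1.28 and 1.19 in the Oxa libraries, 2.47, 1.85 and 2.51 in the APAP libraries and 2.04, 1.99 and 2.81 in the PBS libraries. The OAP2 libraries were the 3 highest, and the Oxa and PBS libraries overlapped through Oxa 1. The log2 fold change was 1.38 ± 0.25 (SE), adjusted p = 0.00329 for OAP2 against Oxa, held under every alternative. It was 0.83 ± 0.24 (SE), adjusted p = 0.0675 for OAP2 against PBS and -0.55 ± 0.24 (SE), adjusted p = 0.163 for Oxa against PBS, and neither passed.

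RTP4 is an interferon-induced protein that helps carry receptors to the cell surface. Rtp4 (chr16:23520291-23614222, plus strand) had 1.89, 1.45 and 1.52 FPKM in the OAP2 libraries, 0.85, 0.65 and 1.01 in the Oxa libraries, 0.86, 0.77 and 0.74 in the APAP libraries and 1.06, 0.97 and 0.97 in the PBS libraries. The OAP2 libraries lay above the other 9. Besides them only Oxa 3 and PBS 1 reached 1 FPKM. Rtp4 thus passed the level filter only with the OAP2 libraries, so a difference was in part built into its being tested. OAP2 against Oxa gave 0.96 ± 0.23 (SE), adjusted p = 0.017, lost without OAP2 1, Oxa 1 or Oxa 2 (adjusted p up to 0.0753), and OAP2 against PBS gave 0.70 ± 0.23 (SE), adjusted p = 0.0999. Rtp4 overlaps Gm45338 on the same strand and Masp1 on the other, so its counts are less certain.

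**Figure D4:**
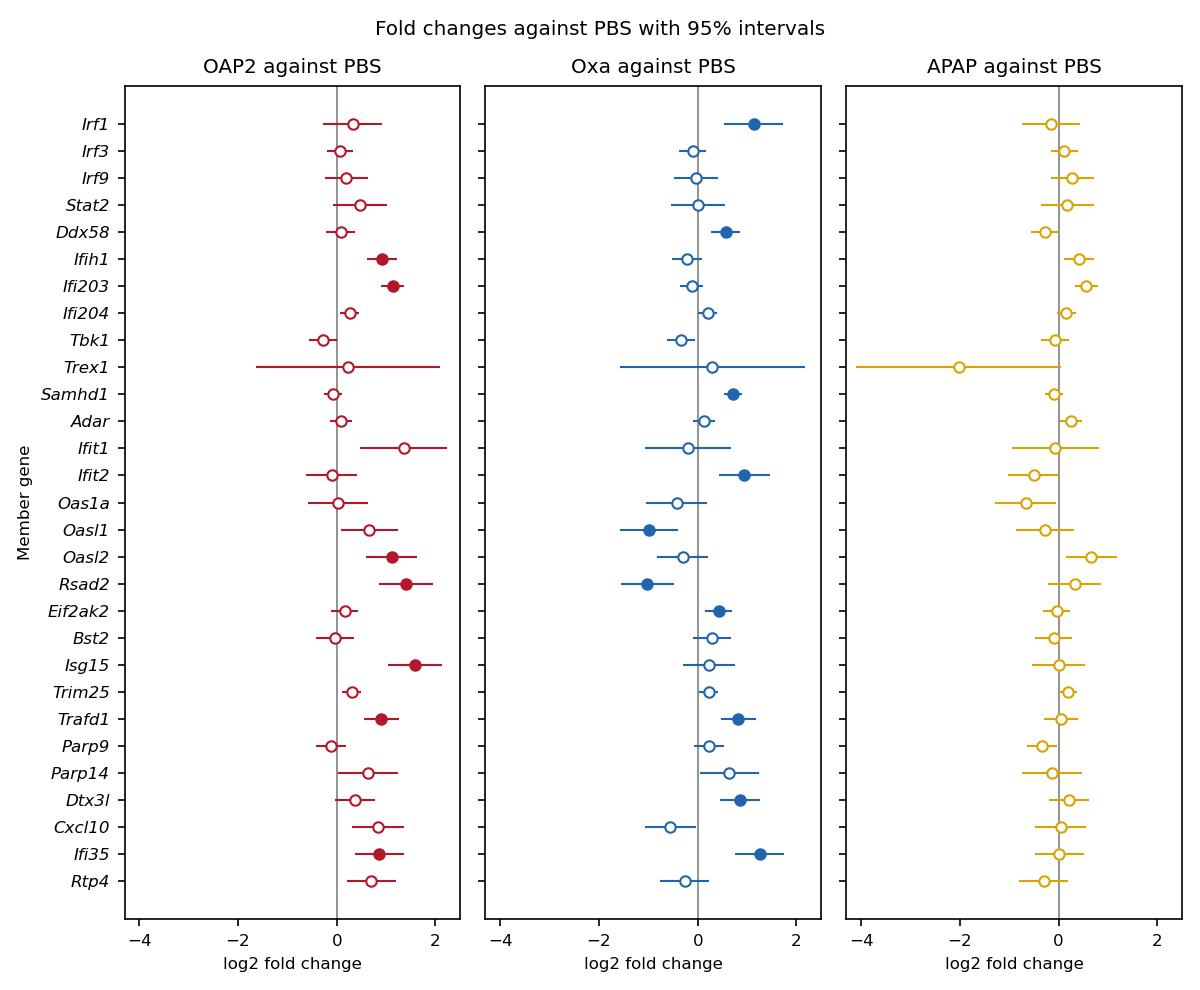
The log2 fold change of each tested member (points) against PBS is plotted with its 95% interval (lines) for OAP2, Oxa and APAP, with filled points at an adjusted p below 0.05. Isg15 reaches 1.59 in OAP2, Ifi35 reaches 1.26 in Oxa, and no point is filled for APAP.

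Across the 29 tested members, the group with the highest mean FPKM was OAP2 for 14, Oxa for 11, APAP for 3 and PBS for 1, against 24.5%, 32.3%, 17.4% and 25.8% of all tested genes. The 14 include Ifit1 and Rtp4, and the 11 include Ifit2 and Parp14. Each of these passed the level filter only with the group where its mean was highest, so its place was in part built in. All 3 OAP2 libraries exceeded the other 9 for 7 members (Ifih1, Ifi203, Ifit1, Rsad2, Isg15, Cxcl10 and Rtp4), against 2.61% of all genes, and were below the other 9 for 0, against 2.89%. All 3 Oxa libraries did so for another 7 (Irf1, Ddx58, Samhd1, Ifit2, Parp9, Dtx3l and Ifi35), against 7.54% of all genes. The Oxa libraries were the 3 lowest for Ifih1, Oasl1 and Rsad2, against 5.13% of all genes, and the PBS libraries for Trim25, against 1.01%.

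Ifit1 and Rtp4 entered the OAP2 count through the level filter, as stated above, which leaves Ifih1, Ifi203, Rsad2, Isg15 and Cxcl10 in it. Ifit2 entered the counts for Oxa in the same way, and Parp14 entered the count of highest means for Oxa so. Of the 9 members higher in OAP2 than in Oxa, 8 had a promoter window and 6 of these held an ISRE core, or 5 of 7 without Ifit1. Of the 8 members that rose with Oxa against PBS, all 8 had a window and 2 held the core (Ddx58 and Eif2ak2). Ifit2, which passed the level filter only with the Oxa libraries, was among those without the core. Of the 7 members that rose with OAP2 against PBS, 4 held it (Ifi203, Ifih1, Isg15 and Rsad2). The sets are small and share members, and the difference in motif share was not tested.

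**Figure D5:**
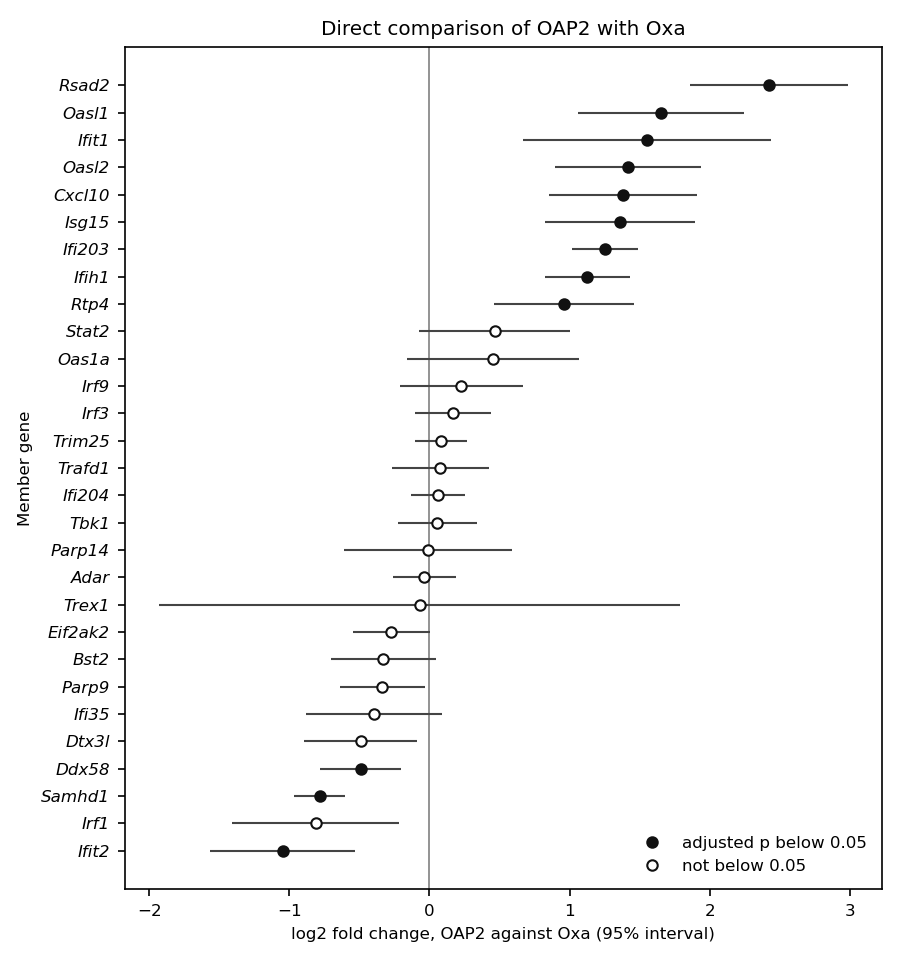
The log2 fold change of OAP2 against Oxa (x axis) is plotted for each tested member with its 95% interval, filled at an adjusted p below 0.05. The 12 filled points run from -1.05 for Ifit2 to 2.42 for Rsad2.

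Within groups, the members moved unevenly between libraries. OAP2 3 was the lowest of the 3 OAP2 libraries for 22 of the 29 members, OAP2 1 for 2 and OAP2 2 for 5. The share of all genes with OAP2 3 lowest is not given here. As OAP2 3 also stood apart on the principal components of all tested genes, the count is not read as particular to the members. The mean log2(FPKM + 1) over the 29 was 2.68, 2.64 and 2.46 in OAP2, 2.39, 2.28 and 2.45 in Oxa, 2.21, 2.19 and 2.27 in APAP, and 2.24, 2.25 and 2.23 in PBS. OAP2 3 lay nearest to Oxa 3 on this scale, at 2.46 against 2.45. These means include Ifit1 and Rtp4, which passed the level filter only with the OAP2 libraries. They also include Ifit2 and Parp14, which passed it only with the Oxa libraries. A difference between groups is thus in part built into this scale, and the order of OAP2 3 and Oxa 3 is not read as a result.

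The 12 members that never reached 1 FPKM were Irf7, Dhx58, Zbp1, Ifit3, Mx1, Mx2, Oas2, Oas3, Cmpk2, Usp18, Ifi44 and Ifi27l2a. They include IRF7, which amplifies interferon production, LGP2 (Dhx58), which tunes RIG-I and MDA5, and USP18, which removes ISG15 and limits receptor signalling. The highest value in a single library among the 12 was that of Irf7, at 0.98, 0.7 and 0.59 FPKM in OAP2 libraries against 0.66, 0.4 and 0.26 FPKM in PBS libraries. When the filter was dropped, none of these 12 was called in any of the 5 edgeR comparisons. For OAP2 against PBS, Cmpk2, Irf7 and Ifi44 then had an unadjusted p below 0.05, with a lowest adjusted p of 0.144 among the 12. Against PBS, in Oxa only Zbp1, a sensor of Z-form nucleic acids, did, at 0.35, 0.37 and 0.38 FPKM in Oxa libraries against 0.17, 0.1 and 0.05 FPKM in PBS libraries. For OAP2 against Oxa 6 of the 12 did (Dhx58, Cmpk2, Mx2, Irf7, Zbp1 and Ifi44), for OAP2 against APAP 2 (Cmpk2 and Irf7), and for APAP against PBS 0. In the filtered fit, unadjusted p lay below 0.05 for 20.8% of all genes for OAP2 against PBS and 27.1% for Oxa against PBS. It did for 27.8% for OAP2 against Oxa, 15.2% for OAP2 against APAP and 9.16% for APAP against PBS. The share in the fit with no filter is not given here.

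The 7 interferon genes measured were at or near 0, and Ifna1 and Ifna4 were not analysed here. Ifnb1, Ifna2, Ifne, Ifnk, Ifnl2, Ifnl3 and Ifng did not exceed 0.14 FPKM in any library, and Ifnb1 was listed at 0 in 11 of the 12. Of the 6 tested receptor genes (Ifnar1, Ifnar2, Ifngr1, Ifngr2, Ifnlr1 and Il10rb), edgeR called none in any comparison. For OAP2 against PBS, Ifnar1 and Ifngr1 had unadjusted p-values below 0.05, as did 20.8% of all genes. Ifngr1, a subunit of the interferon-gamma receptor, gave the smallest p among receptors, with a log2 fold change of 0.38 ± 0.17 (SE), adjusted p = 0.236. The same gene had the smallest p among receptors for Oxa against PBS, at 0.31 ± 0.17 (SE), adjusted p = 0.27, for APAP against PBS, at -0.25 ± 0.17 (SE), adjusted p = 0.7, and for OAP2 against APAP, at 0.62 ± 0.17 (SE), adjusted p = 0.122. For OAP2 against Oxa it was Ifnar1, a subunit of the type I receptor, at 0.30 ± 0.13 (SE), adjusted p = 0.132.

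The calls on the following 3 lists are to be read against the shares of all genes called, 5.25% for OAP2 against PBS, 10.1% for Oxa against PBS and 12.9% for OAP2 against Oxa. Of 13 tested genes of interferon signal transduction, edgeR called 0 for OAP2 against PBS, with 4 at an unadjusted p below 0.05, against 20.8% of all genes. Ptpn1, a phosphatase that acts on the receptor's kinases, had the smallest p at -0.29 ± 0.10 (SE), adjusted p = 0.118. With Oxa, 2 rose and 0 fell against PBS. One of them was Tyk2, a kinase bound to the interferon receptor, at 0.72 ± 0.17 (SE), adjusted p = 0.0168, and its call ended without Oxa 1 (adjusted p = 0.073). Between OAP2 and Oxa, 1 was called, the phosphatase Ptpn6, at -0.58 ± 0.18 (SE), adjusted p = 0.0486, which ended in 11 of the 12 fits that left out 1 library and held only without PBS 2. Where none was called, the smallest p was that of Ptpn6 for APAP against PBS, at -0.51 ± 0.18 (SE), adjusted p = 0.43, and of Ptpn1 for OAP2 against APAP, at -0.28 ± 0.10 (SE), adjusted p = 0.212.

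Of 16 other tested sensors and adaptors, 2 rose for OAP2 against PBS and 0 fell. Zc3hav1, the antiviral protein ZAP that binds CpG-rich RNA, gave 0.41 ± 0.08 (SE), adjusted p = 0.013, and Rnaseh2a, the catalytic subunit of an enzyme that removes RNA from DNA, gave 0.41 ± 0.09 (SE), adjusted p = 0.0228. The Zc3hav1 call ended without OAP2 1 or OAP2 2 and the Rnaseh2a call without OAP2 1, PBS 1 or PBS 3 (adjusted p up to 0.0592 and 0.0847). With Oxa, 2 rose and 0 fell against PBS. Rnaseh2a gave 0.52 ± 0.09 (SE), adjusted p = 0.00603, held under every alternative, and Mavs, the adaptor of RIG-I and MDA5, gave 0.35 ± 0.10 (SE), adjusted p = 0.0369, which ended without any 1 Oxa library, APAP 3, PBS 1 or PBS 3 (adjusted p up to 0.163). Between OAP2 and Oxa, Zc3hav1 alone was called, at 0.40 ± 0.08 (SE), adjusted p = 0.00799. None was called for the other comparisons, where the smallest p was that of Zc3hav1 for APAP against PBS, at 0.27 ± 0.08 (SE), adjusted p = 0.364, and of the adaptor Traf3 for OAP2 against APAP, at -0.36 ± 0.09 (SE), adjusted p = 0.0871.

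Of 28 other tested interferon-induced effectors, 3 rose and 1 fell for OAP2 against PBS. Tor3a, an ATPase of the endoplasmic reticulum, gave 0.53 ± 0.09 (SE), adjusted p = 0.00612. Trim56, a ubiquitin ligase, gave 0.56 ± 0.14 (SE), adjusted p = 0.0345 and Shisa5 gave 0.35 ± 0.09 (SE), adjusted p = 0.0397. Plscr2, a member of the scramblase family, fell at -1.02 ± 0.14 (SE), adjusted p = 0.00134. The Trim56 call ended in 4 of the 12 fits that left out 1 library (adjusted p up to 0.146). These were the fits without OAP2 1, OAP2 2, APAP 1 or PBS 1. The Shisa5 call ended in 9 (adjusted p up to 0.128) and held without Oxa 2, PBS 1 or PBS 2.

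With Oxa, 4 of the 28 rose against PBS and 0 fell. Parp10, which attaches ADP-ribose to proteins, gave 1.08 ± 0.23 (SE), adjusted p = 0.012, and Slfn9 gave 0.62 ± 0.12 (SE), adjusted p = 0.00943. N4bp1, a ribonuclease, gave 0.42 ± 0.10 (SE), adjusted p = 0.0215 and Ifitm3, which blocks entry of viruses from endosomes, gave 0.45 ± 0.13 (SE), adjusted p = 0.0407. The calls ended for Slfn9 without Oxa 3, for N4bp1 without Oxa 2 or PBS 3, and for Ifitm3 in 10 of the 12 fits (adjusted p up to 0.16). The Ifitm3 call held without OAP2 3 or PBS 2.

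Between OAP2 and Oxa, 1 of the 28 was higher, Tor3a at 0.49 ± 0.09 (SE), adjusted p = 0.00476, and 4 were lower, 3 of them Plscr2 at 0.5 times the Oxa level, adjusted p = 0.000716, Slfn9 at -0.66 ± 0.12 (SE), adjusted p = 0.0047 and Apobec3 at -0.62 ± 0.15 (SE), adjusted p = 0.0175. The Apobec3 call ended without OAP2 1, Oxa 1 or Oxa 2 (adjusted p up to 0.0713). Over all 63 tested genes of these lists, the share called was 9.52% for OAP2 against PBS, 12.7% for Oxa against PBS and 11.1% for OAP2 against Oxa, against the shares of all genes given above. Both shares that involve Oxa lay near those of all genes. The median log2 fold change was 0.05 for OAP2 against PBS, 0.12 for Oxa against PBS and -0.05 for APAP against PBS. No gene of the 63 was called for APAP against PBS or for OAP2 against APAP by edgeR, where 7 and 14 had an unadjusted p below 0.05, against 9.16% and 15.2% of all genes. The smallest p among them were those of Plscr2 at -0.56 ± 0.14 (SE), adjusted p = 0.258 for APAP against PBS and Tor3a at 0.43 ± 0.09 (SE), adjusted p = 0.0623 for OAP2 against APAP.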

How the data were processed

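Gene expression was measured by RNA sequencing of poly(A) RNA in 12 libraries of 4T1 cells. The labels' protocols describe Trizol extraction and strand-marked paired libraries, and the submitters' processing notes list HISAT2 2.2.1, StringTie 2.1.6, cutadapt 1.9, edgeR and DESeq2, with no roles. Per the file headers, each library has an FPKM column and a count column. Both were deposited by the authors, and the counts are unscaled estimated counts in whole numbers. How strand and reads shared between genes were counted is not given in the sources used here, so overlapping genes and near-identical family members are less certain. The notes list mm9, but 87.9% of 29864 genes matched by ID had the position of GENCODE M21 (GRCm38), as did 35 of the 41 members. Control columns carry a name for control and the numbers 1 to 3, and were taken as PBS by inference, since no other group lacks a drug.

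Genes with at least 1 FPKM in at least 3 libraries (12036) were tested with edgeR 4.0.16 in R 4.3.3: TMM scaling, 1 mean for each group over all 12 libraries, the quasi-likelihood test, and Benjamini-Hochberg adjustment over all 12036 genes. A call means an adjusted p below 0.05. Standard errors were approximated from each log2 fold change and its F statistic. Deposited FPKM values are printed as levels. In counting error, the totals of 64071751 to 71500487 counts limit the low members most. The members and the other gene lists were chosen with earlier results of these data known, so counts over them are descriptions.

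Every member is accounted for. Values in each library are given for members called in at least 1 comparison or with an unadjusted p below 0.05 against PBS, the others by range. Of each other list, up to 4 called genes with the smallest p per comparison are named, or 1 where none was called. Promoters came from RefSeq on GRCm38.p6. Alternatives were DESeq2 1.42.0, limma 3.58.1 on log2(FPKM + pseudocount) and with voom weights, no filter, and edgeR's own filter (filterByExpr). Others were edgeR scaled by DESeq2 size factors or by library totals only, fits of only the 6 libraries compared, and a replicate block. Each library was also left out in turn. Leaving out PBS 2 and OAP2 3 together was chosen after seeing the data. The main edgeR fit was tried on simulated data for OAP2 against PBS only, and the other fits were not. One gene of the signal transduction list is counted but not reported here.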

Additional observations from a re-analysis of the deposited data

How the results depend on the processing

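Each result was recomputed under 23 alternatives, 12 of them leaving out 1 library. No member value reversed, and 12 of the 32 calls on members held in all 23. For OAP2 against PBS the 7 members called became 11 with DESeq2, 1 with only the 6 libraries compared, 14 with voom weights and 13 with PBS 2 and OAP2 3 left out, and lay between 5 and 9 with 1 library left out. The share of all genes called, 5.25% in the main fit, became 10.5%, 0.316%, 23.6% and 23.6% in that order. With 1 library left out it lay between 2.09% and 16.4%. For Oxa against PBS the 10 became 5 with no filter and 6 with only the 6 libraries compared, and lay between 4 and 12 with 1 library left out. The share of all genes, 10.1% in the main fit, became 2.43% and 4.35%, and lay between 3.96% and 25.5% with 1 library left out. The fits with no filter covered all 41 members and 28844 genes. For APAP against PBS the 0 became 1 with DESeq2, 2 with voom weights and 2 with both libraries left out, where 0.806%, 0.872% and 0.598% of all genes were called. For OAP2 against Oxa the 12 lay between 9 and 16 in all alternatives, and the share of all genes called between 3.56% and 28.9%. For OAP2 against APAP the 3 became 0 with no filter, 10 with DESeq2, 7 with only the 6 libraries compared, 14 with voom weights and 13 with both libraries left out, and lay between 0 and 8 with 1 library left out. The share of all genes, 0.474% in the main fit, became 0.0139%, 4.2%, 2.38%, 13% and 11.9% in that order. It lay between 0% and 7.61% with 1 library left out. The cause of these shifts was not tested.

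No pairing by replicate number was seen: same-numbered pairs correlated between -0.152 and 0.155, and 1 of 12 libraries lay closest to one with its own number. The correlated values were deviations from group means of 3 libraries. PBS 2 and OAP2 3 can dominate these, so the check could miss a pairing. With the replicate number as a block, 6 members were called for OAP2 against PBS, 8 for Oxa against PBS, 0 for APAP against PBS, 12 for OAP2 against Oxa and 1 for OAP2 against APAP. The shares of all genes called were 4.26%, 9.11%, 0.0249%, 11.8% and 0.249% in that order, with 30 genes in the last.

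Counts over all genes moved too. The 632 genes called for OAP2 against PBS became 1267 with DESeq2, 360 with no filter, 2836 with voom weights, 1976 without PBS 2 and 2838 without PBS 2 and OAP2 3. For Oxa against PBS the 1217 became 2020, 701, 4394, 3066 and 4258 in the same order, and 523 with only the 6 libraries. For APAP against PBS the 2 became 97, 0, 105, 3 and 72. For OAP2 against APAP the 57 became 506, 4, 1567, 916 and 1438. For OAP2 against Oxa the 1557 became 1026 with no filter, 3474 with voom weights, 2743 without PBS 2 and 3426 without both. With 1 library left out, these counts lay between 252 and 1976 for OAP2 against PBS, 477 and 3066 for Oxa against PBS, 0 and 3 for APAP against PBS, 688 and 2743 for OAP2 against Oxa, and 0 and 916 for OAP2 against APAP. With 3 libraries in each group, small changes in members of low level cannot be told from library spread.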
